A study of Mus musculus with 6 samples.

Results

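Nuclear hormone receptors are transcription factors, many of which are switched by a small fat-soluble ligand such as a steroid, a retinoid, thyroid hormone, vitamin D, an oxysterol or a bile acid. The set described here holds 44 genes of this family, of 20660 genes that RefSeq accessions named on the array, and 64 of its 55681 probes. A probe was taken when its RefSeq accession mapped to one of the member symbols. The retinoic acid receptor Rarb and the adipocyte receptor Pparg were not in the set. All 44 members had at least 1 probe, and 18 had several.

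RNA came from fibroblasts grown out of the heart and out of the skinned tail of adult male C57/Bl6-J mice, labelled as 8 weeks old (8 to 10 weeks in the protocol). The tissue was digested with trypsin or collagenase and the cells were cultured in serum-containing medium for 5 days, with no sorting step given in the labels. There were 3 cultures labelled heart fibroblast and 3 labelled tail fibroblast, each from 2 pooled animals, with 1 single-colour Agilent array per culture and no other treatment. The series title frames the comparison as one of heart-forming genes in cardiac fibroblasts. The sources used here do not say whether heart and tail cultures came from the same mice. The list of fibroblast markers held 12 genes, among them the type I collagen genes Col1a1 and Col1a2 and the receptor gene Pdgfra. All 12 were well above background on each of the 6 arrays. This cannot check the label, since all 12 leukocyte and macrophage markers were too on heart 1 and 3 and tail 1 and 2.

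Members of the family usually bind DNA as dimers at repeats of a short core motif. Receptors for retinoids, thyroid hormone, vitamin D, fatty acids, oxysterols and bile acids pair with a retinoid X receptor, whereas steroid receptors such as the glucocorticoid receptor pair with themselves. Others have no known natural ligand, and Rev-erb and ROR receptors act in the circadian clock.

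Levels are given as the normalised signal, which is the log2 processed signal of a probe minus the 75th percentile of its own array, so that 0 lies at that percentile. Signals of different probes are not comparable in level, and only values of the same probe across arrays are compared. A member was tested when its probe was well above background, as flagged by the scanner software, on all arrays of at least 1 group.

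A pair of arrays stood apart. On heart 2, 99.3% of spots were well above background, against 47.3% to 55.2% on the other 5 arrays, and the correlation of its signals with each of theirs over probes was only 0.742 to 0.764, beside 0.957 to 0.988 among those 5. Being well above background on heart 2 therefore separates few probes from the rest. For the array labelled tail 1 the correlation was 0.988 (heart 1), 0.979 (heart 3), 0.969 (tail 2) and 0.957 (tail 3), so its signals ran against its label. Differences of tested receptors are given for the 4 arrays without these 2 and, as "by label", for all 6. Pgr and Hnf4a could be tested on 4 arrays only. Because tail 1 was doubted from its expression values, p-values of the 4-array comparison (heart 1 and 3 against tail 2 and 3) are too small by an unknown amount.

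With all 6 arrays by label, none of the 30 tested receptors differed between heart and tail beyond the spread of the arrays. That spread includes heart 2 and tail 1, so it is not that of the cultures alone. By limma with Benjamini-Hochberg adjustment 0 passed, and 0 of the 30 had an unadjusted p under 0.05. Adjusted p-values ran from 0.714 (Nr1h4, Rara and others) to 0.973 (Nr1h3). Of all 20202 features tested 0 passed (0.0% called), and 445 had an unadjusted p under 0.05. The groups did not overlap at 6 of the 30 receptors, where 10.4% of all features tested did not overlap. Heart lay below tail for Rara, Thra, Thrb, Rxrg and Nr2c1 and above it for Nr1i3. The median difference over the 30 was -0.53 on the log2 scale, beside -0.40 over all features tested. When limma's array weights were estimated, 7 of the 30 passed, beside 20.6% of all features. Those weights ran from 0.0209 for heart 2 and 0.405 for tail 1 to 17.1 for tail 3, so that fit leaned on 1 tail array.

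Without heart 2 and tail 1, 8 of 32 tested receptors passed. The bile acid receptor Nr1h4, the oxysterol receptor Nr1h3 and the orphan receptor Nr2f1 were higher in heart. The retinoic acid receptor Rara, the vitamin D receptor Vdr, the progesterone receptor Pgr, the clock-related receptor Rorb and the orphan receptor Hnf4a were lower in heart. Of all 20575 features tested 14.4% passed, 7.8% as higher in heart and 6.65% as lower, so 3 receptors higher and 5 lower are to be read against those shares. Nr1h4 entered the test only through heart, where it is high, and Pgr, Rorb and Hnf4a only through tail, so their place in the count is no support. Without the filter Nr1h4 and Hnf4a passed. The median difference over the 32 was -0.13, beside -0.07 over all features tested. The groups did not overlap at 22 of the 32, where 62.5% of all features did not overlap in this comparison of 2 against 2 arrays. At all 8 receptors that passed, the array labelled tail 1 lay nearer to the heart mean, and heart 2 lay nearer to the tail mean at 6 of them. Tail 1 was left out because its signals over all probes ran with heart, so its place is no result about the receptors.

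**Figure D1:**
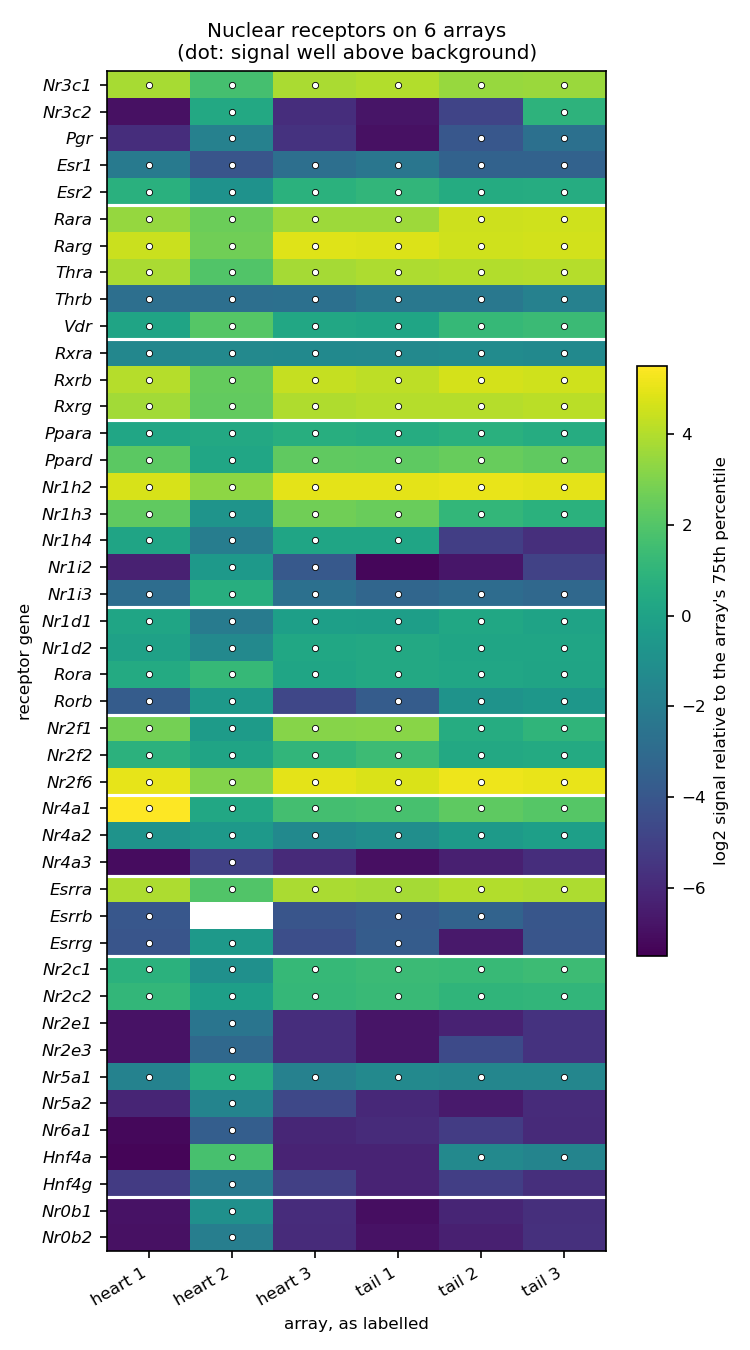
Normalised log2 signal (colour) of all 44 receptors on the 6 arrays, with a dot where the probe was well above background. Rows are to be read across arrays, since probes differ in brightness; on heart 2 every measured receptor carries a dot, and the white cell of Esrrb there is an outlier spot that was left out.

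The sequence just upstream of a receptor's transcription start is shown for the receptors with the largest fitted differences in each direction in the 4-array comparison, Nr1h4 and Nr2f1 on the heart side and Hnf4a and Rorb on the tail side. Each is the 250 bases before the most upstream start listed by RefSeq on GRCm38.p6, on the gene's own strand. The windows are chr10:89506659-89506908 (minus strand) for Nr1h4, chr13:78198874-78199123 (minus strand) for Nr2f1, chr2:163506607-163506856 (plus strand) for Hnf4a and chr19:19111197-19111446 (minus strand) for Rorb. Capitals mark AGGTCA, the core motif of many nuclear receptors, or its reverse complement TGACCT.
Nr1h4: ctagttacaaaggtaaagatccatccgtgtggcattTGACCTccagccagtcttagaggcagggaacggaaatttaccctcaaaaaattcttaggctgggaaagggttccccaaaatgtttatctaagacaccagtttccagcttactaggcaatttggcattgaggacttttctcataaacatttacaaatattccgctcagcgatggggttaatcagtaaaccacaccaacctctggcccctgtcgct
Nr2f1: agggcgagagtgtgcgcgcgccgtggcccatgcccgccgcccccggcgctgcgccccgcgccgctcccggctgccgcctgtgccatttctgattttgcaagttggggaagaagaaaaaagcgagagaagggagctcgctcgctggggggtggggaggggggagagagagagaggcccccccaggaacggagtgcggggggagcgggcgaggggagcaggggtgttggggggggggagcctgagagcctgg
Hnf4a: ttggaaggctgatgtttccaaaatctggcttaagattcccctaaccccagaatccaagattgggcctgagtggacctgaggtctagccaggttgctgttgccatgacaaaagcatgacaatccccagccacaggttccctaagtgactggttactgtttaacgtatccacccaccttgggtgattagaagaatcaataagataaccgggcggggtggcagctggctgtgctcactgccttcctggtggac
Rorb: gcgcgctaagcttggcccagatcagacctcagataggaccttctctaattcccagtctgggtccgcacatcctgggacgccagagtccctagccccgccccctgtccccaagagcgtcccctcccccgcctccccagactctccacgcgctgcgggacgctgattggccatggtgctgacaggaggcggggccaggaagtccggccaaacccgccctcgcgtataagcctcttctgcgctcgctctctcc

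Of these 4 windows, only that of Nr1h4 held the motif, with 1 match. The windows differed in composition, with a GC content of 72% for Nr2f1, 66% for Rorb, 51.2% for Hnf4a and 44.4% for Nr1h4, beside a median of 52.4% over all 32851 windows of this length in the table. Over the 59 listed starts of 40 receptor genes, 9 windows held AGGTCA on either strand, or 15.3%, beside 14% of all windows. The motif is a description of these letters. Which start the cultured cells used was not measured.

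Among receptors that sense lipids, Nr1h4 encodes FXR, the receptor for bile acids, and was higher in heart on 4 arrays. Its signal was 0.10, -2.01 and 0.14 on heart 1, 2 and 3 and 0.14, -5.10 and -5.72 on tail 1, 2 and 3. The signal was well above background on all 3 heart arrays and on tail 1, and not on tail 2 and 3. By label the groups overlapped through tail 1, with a difference of 2.97 (SE 1.46, limma adjusted p = 0.714). On 4 arrays it was at least 20.7-fold higher in heart (limma log2 difference 5.53, SE 0.25, adjusted p = 0.00118). Those of the 4 that share a slide row differed by 5.20 (heart 1 and tail 2, first row) and 5.86 (heart 3 and tail 3, second row). The first row also held heart 2 and tail 1, and with them included the Nr1h4 difference there was 1.52. With normexp background correction the difference was 2.67, which is less than that bound, so the bound holds for the processed signal only. The authors' deposited table of 433 probes lists 1 member, this Nr1h4 probe, with a log2 fold change of 5.27, or 38.6-fold, in favour of heart. The array carried a single Nr1h4 probe by RefSeq accession. The authors' table belongs to the same series, and the sources used here do not say which arrays entered it. Its value is therefore no separate support.

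Nr1h3 encodes LXR alpha, a receptor for oxysterols that is abundant in macrophages, liver and fat. Its brighter probe read 2.34, -0.78 and 2.68 on heart 1, 2 and 3 and 2.52, 1.13 and 0.80 on tail 1, 2 and 3. Heart 1 and 3 and tail 1 were high, tail 2 and 3 lower and heart 2 lowest. By label the difference was -0.07 (SE 0.94, limma adjusted p = 0.973). On 4 arrays Nr1h3 was 2.92-fold higher in heart (log2 difference 1.54, SE 0.21, adjusted p = 0.0143), and the fainter probe, tested by itself, differed by 1.5 (adjusted p = 0.0246). The call was lost without heart 3 (adjusted p = 0.0514), tail 2 (0.0535) or tail 3 (0.0932). The related Nr1h2, or LXR beta, which most tissues express, read 4.72, 3.30 and 4.98 on the heart arrays and 4.95, 5.06 and 4.96 on the tail arrays. Apart from heart 2 its values spanned 0.34, and it did not pass on 4 arrays (log2 difference -0.16, SE 0.17, adjusted p = 0.577; by label -0.66).

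Ppard, a fatty acid receptor found in most tissues, read 2.24, 0.18 and 2.34 on heart and 2.27, 2.49 and 2.33 on tail (4-array difference -0.12, limma adjusted p = 0.641; by label -0.78). Ppara, the fatty acid receptor of liver and heart muscle, read 0.18, 0.34 and 0.67 on heart and 0.55, 0.76 and 0.53 on tail (-0.22, adjusted p = 0.573; by label -0.21). Neither separated the tissues. The xenobiotic receptor Nr1i3, or CAR, read -2.85, 0.66 and -2.72 on heart and -3.21, -2.88 and -3.09 on tail. Its heart values lay above its tail values on all arrays, by little except on heart 2, and it did not pass on 4 arrays (0.20, adjusted p = 0.465; -0.04 with normexp; by label 1.42). Nr1i2, or PXR, a xenobiotic receptor of liver and gut, read -6.30, -0.51 and -3.86 on heart and -7.26, -6.72 and -4.92 on tail. It was well above background only on heart 2 and 3 and was not tested.

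The COUP-TF receptors are orphan regulators of organ development, and Nr2f2 is known for venous and atrial identity. Nr2f1 read 2.76, -0.37 and 3.12 on heart 1, 2 and 3 and 3.19, 0.56 and 0.99 on tail 1, 2 and 3. Heart 1, heart 3 and tail 1 were high and the other arrays low. By label its difference was 0.26 (SE 1.04, limma adjusted p = 0.902). On 4 arrays it was 4.50-fold higher in heart (limma log2 difference 2.17, SE 0.24, adjusted p = 0.00793). The difference was 2.21 between heart 1 and tail 2 and 2.13 between heart 3 and tail 3. With heart 2 and tail 1 included, the difference over the first slide row was -0.67. The other Nr2f1 probe, tested by itself, differed by 2.27 (limma adjusted p = 0.00619). Leaving out any 1 of the 4 arrays kept the call.

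Nr2f2 read 0.83, 0.09 and 1.04 on heart and 1.42, 0.33 and 0.44 on tail. Heart 1 and 3 lay above tail 2 and 3, but the 4-array difference did not pass (0.55, SE 0.16, limma adjusted p = 0.105; by label -0.08). Nr2f6, a more distant member of the group, read 5.03, 3.10 and 4.97 on heart and 4.75, 5.16 and 5.04 on tail and did not pass (-0.10, adjusted p = 0.686; by label -0.62). Of the 3 COUP-TF genes, 1 rose and 2 did not pass, where 7.8% of all features passed as higher.

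**Figure D2:**
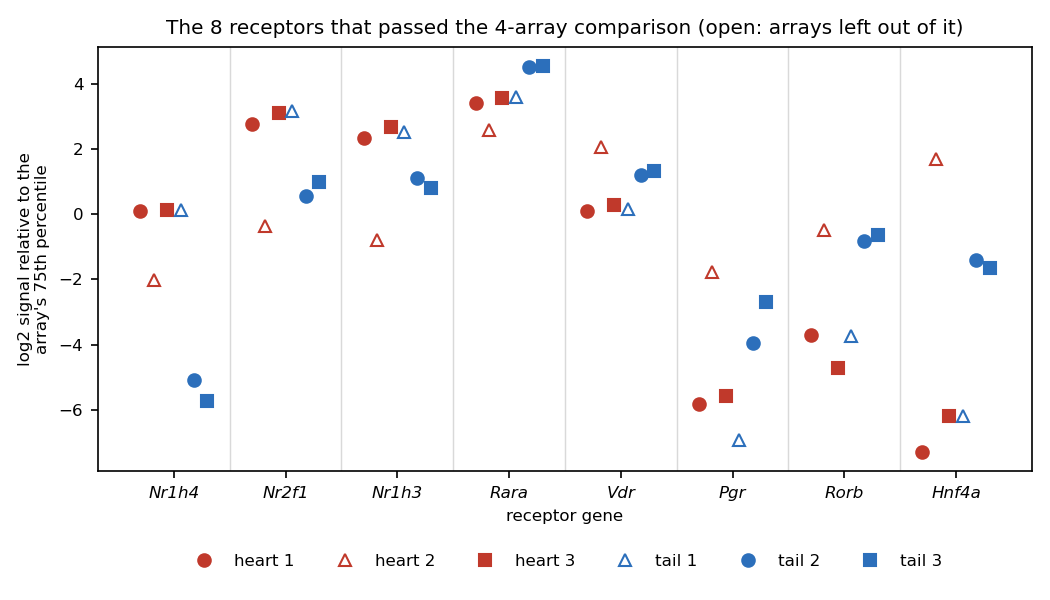
Normalised log2 signal on each array for the 8 receptors that passed with 4 arrays, heart in red and tail in blue, with open triangles for heart 2 and tail 1, which were left out of that comparison. The open blue triangle of tail 1 sits with the filled red points at each receptor, as for Nr1h4, where it read 0.14 beside 0.10 and 0.14.

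Among the receptors for retinoic acid, thyroid hormone and vitamin D, 2 of 5 were lower in heart and none was higher on 4 arrays, where 6.65% of all features passed as lower and 7.8% as higher. Rara, a retinoic acid receptor of most tissues, read 3.44, 2.60 and 3.59 on heart 1, 2 and 3 and 3.62, 4.53 and 4.55 on tail 1, 2 and 3. It was the only receptor of the 8 whose heart values all lay below its tail values by label, although tail 1 exceeded heart 3 by little (difference -1.03, SE 0.49, limma adjusted p = 0.714). On 4 arrays the difference was -1.03 (SE 0.15, adjusted p = 0.017), a 2.04-fold lower level, and the other probe, tested by itself, differed by -1.27 (adjusted p = 0.0244). Rara did not pass when tail 2 (adjusted p = 0.164) or tail 3 (0.177) was left out. Rarg, known from skin and cartilage, read 4.47, 2.66 and 4.87 on heart and 4.83, 4.57 and 4.61 on tail and did not pass (0.08, adjusted p = 0.811; by label -0.67).

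Vdr read 0.11, 2.08 and 0.30 on heart 1, 2 and 3 and 0.16, 1.21 and 1.35 on tail 1, 2 and 3. Heart 2 had its highest value, and tail 1 lay with heart 1 and 3. The difference was -0.07 by label (SE 0.64, limma adjusted p = 0.959) and -1.07 on 4 arrays (SE 0.16, adjusted p = 0.019), or 2.10-fold lower in heart. It did not pass without tail 2 (adjusted p = 0.134) or tail 3 (0.191).

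Thra, the thyroid hormone receptor known from heart muscle, read 3.83, 1.97 and 3.77 on heart and 3.88, 4.01 and 4.04 on tail. Its brighter probe did not pass on 4 arrays (-0.23, limma adjusted p = 0.351; by label -0.79), whereas a fainter probe of the gene did when each probe was tested by itself (-0.76, adjusted p = 0.0478). Thrb, the receptor form known from liver and pituitary, read -2.76, -2.74 and -2.70 on heart and -2.30, -2.32 and -1.76 on tail. Its 3 heart values all lay below its 3 tail values, but neither comparison passed (4 arrays: -0.70, adjusted p = 0.138; by label: -0.61, adjusted p = 0.714).

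The retinoid X receptors, which serve as the shared dimer partner, did not pass in either comparison. Rxra read -1.50, -1.36 and -1.31 on heart and -1.40, -1.22 and -1.33 on tail, a span of 0.28 over the 6 arrays (4 arrays: -0.13, limma adjusted p = 0.633; by label: -0.07). Its fainter probe read -2.38, -1.21 and -2.19 on heart and -2.15, -1.54 and -1.57 on tail. There heart 1 and 3 lay below tail 2 and 3, and the difference just missed the threshold (-0.73, SE 0.16, limma adjusted p = 0.0508, tested by itself). Rxrb read 4.06, 2.41 and 4.34 on heart and 4.23, 4.68 and 4.54 on tail (4-array difference -0.41, limma adjusted p = 0.211; by label -0.88). The probes of Rxrg disagreed. Its brighter probe read 3.71, 2.36 and 3.93 on heart and 4.05, 4.05 and 4.14 on tail. Its fainter probe read -4.18, -1.45 and -3.03 on heart and -3.34, -4.85 and -6.11 on tail, and was not well above background on tail 2 and 3. Neither passed by limma on 4 arrays (-0.27, adjusted p = 0.341, and 1.87, adjusted p = 0.121, each probe tested by itself), so no direction is given for Rxrg. By label the brighter probe differed by -0.75.

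Among steroid receptors, Nr3c1, the glucocorticoid receptor, was well above background on every array. It read 3.79, 1.65 and 3.86 on heart and 4.02, 3.47 and 3.56 on tail. Neither comparison passed (4 arrays: 0.31, SE 0.15, limma adjusted p = 0.247; by label: -0.58, adjusted p = 0.714). The mineralocorticoid receptor Nr3c2 was well above background only on heart 2 (0.33) and tail 3 (0.92), with -6.91 and -5.78 on heart 1 and 3 and -6.76 and -4.84 on tail 1 and 2. It was not tested with either set of arrays, and leaving out tail 2 made it pass on tail 3 alone (log2 difference -7.27, limma adjusted p = 0.00791).

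Pgr, the progesterone receptor, read -5.82, -1.78 and -5.58 on heart 1, 2 and 3 and -6.94, -3.97 and -2.70 on tail 1, 2 and 3. Outside heart 2 it was well above background on tail 2 and 3 alone, and for that reason it was not tested by label. On 4 arrays it was at least 2.23-fold lower in heart (limma log2 difference -2.37, SE 0.45, adjusted p = 0.0364). It entered the test only through tail 2 and 3, and it did not pass without the filter (adjusted p = 0.18). The difference shrank to -0.69 with normexp (adjusted p = 0.109), and the call was lost without heart 1 (0.12) or heart 3 (0.106). A second Pgr probe was not well above background outside heart 2.

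The estrogen receptor Esr1 read -2.17, -4.05 and -2.76 on heart and -2.38, -3.42 and -3.41 on tail with the only probe well above background on all arrays. Heart 1 and 3 and tail 1 lay above tail 2 and 3, and the 4-array difference did not pass (0.95, SE 0.24, limma adjusted p = 0.0739; by label 0.08), although it did without heart 3 (1.25, adjusted p = 0.0318). Esr2 read 0.75, -0.85 and 0.80 on heart and 1.05, 0.50 and 0.57 on tail (0.24, adjusted p = 0.334; by label -0.47). Of the 4 steroid receptors tested, Pgr was thus the only one that passed, as lower in heart, where 6.65% of all features did.

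**Figure D3:**
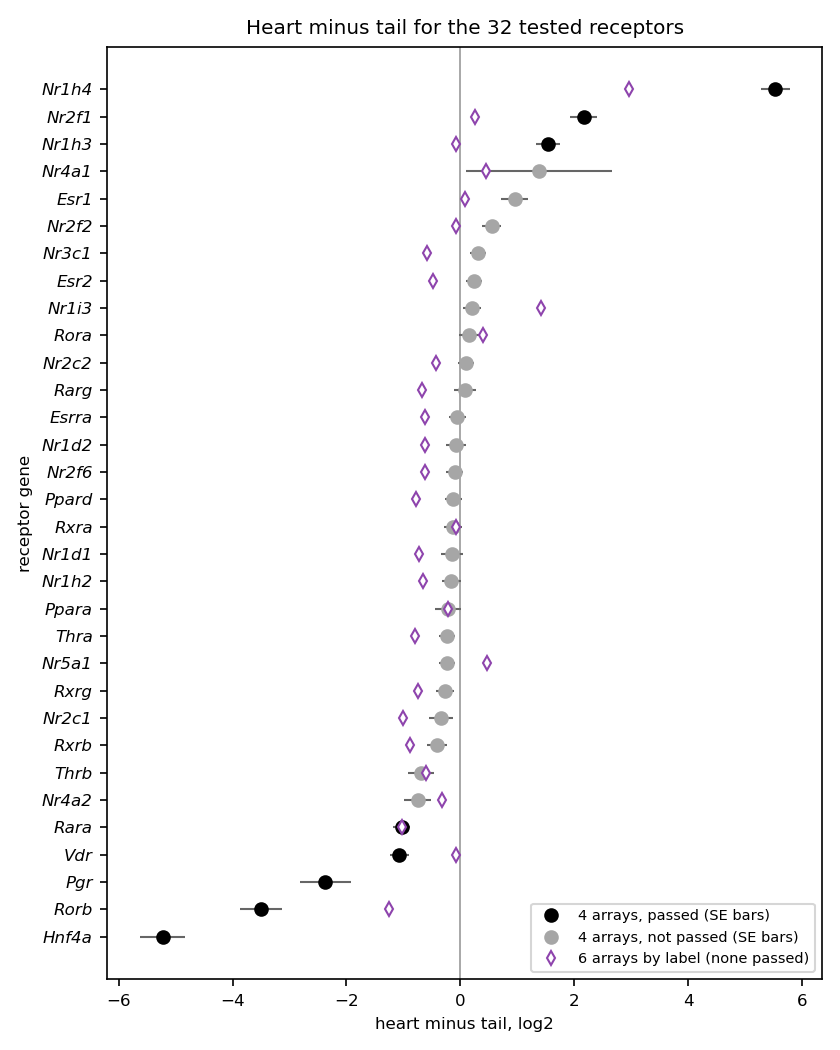
Heart minus tail on the log2 scale for the 32 tested receptors, as dots with SE bars for the 4-array comparison (black where it passed) and as open diamonds for all 6 arrays by label, where none passed. Nr1h4 at 5.53 and Hnf4a at -5.23 lie farthest out, and most diamonds sit to the left of their dots. Each of these 2 had 1 group not well above background, so the plotted sizes are not lower bounds. The bounds for the processed signal are 20.7-fold for Nr1h4 and 7.79-fold for Hnf4a.

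Of the receptors of the circadian clock, Rorb was lower in heart and the other 3 did not pass, where 6.65% of all features passed as lower. Rorb, a ROR receptor known from brain, retina and developing bone, read -3.71, -0.48 and -4.73 on heart 1, 2 and 3 and -3.74, -0.81 and -0.63 on tail 1, 2 and 3. It was well above background on every array but heart 3, so it entered the test only through tail. By label the difference was -1.25 (SE 1.21, limma adjusted p = 0.714), since tail 1 lay with heart and heart 2 with tail. On 4 arrays it was -3.50 (SE 0.37, limma adjusted p = 0.00728), or 11.3-fold lower in heart, and -1.93 with normexp. It was -2.91 between heart 1 and tail 2 and -4.09 between heart 3 and tail 3. The other Rorb probe, tested by itself, differed by -3.01 (limma adjusted p = 0.00481).

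Rev-erb alpha and beta, encoded by Nr1d1 and Nr1d2, repress clock genes. Nr1d1 read 0.15, -2.11 and -0.18 on heart and -0.22, 0.24 and 0.03 on tail. Nr1d2 read -0.07, -1.40 and 0.24 on heart and 0.33, 0.16 and 0.15 on tail. Rora, which activates the same genes, read 0.45, 1.21 and 0.14 on heart and 0.33, 0.20 and 0.09 on tail. Outside heart 2 these values differed by little, and the 4-array differences of -0.15, -0.07 and 0.15 did not pass (limma adjusted p = 0.65, 0.819 and 0.618). By label they were -0.73, -0.62 and 0.39.

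NR4A receptors are orphan receptors whose genes are switched on within minutes by growth factors and stress. Nr4a1 read 5.46, 0.31 and 1.62 on heart 1, 2 and 3 and 1.73, 2.25 and 2.07 on tail 1, 2 and 3. Heart 1 stood alone, and the other 5 arrays lay between 0.31 and 2.25. The difference between the tissues did not pass (4 arrays: 1.38, SE 1.28, limma adjusted p = 0.525; by label 0.45), but leaving out heart 3 made Nr4a1 pass as higher in heart (3.30, adjusted p = 0.0145). Without heart 1 its difference turned, to -0.54. Of 20575 features tested, only 1 exceeded Nr4a1 in its excess on heart 1 over heart 3 (3.84).

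The 14 tested genes of the immediate early list, the quickly induced regulators such as Fos, Egr1 and Egr2, were all higher on heart 1 than on heart 3, with a median excess of 1.07. Over all features the median was -0.04, and 9549 of 20575 were higher on heart 1. The list was described by its values on single arrays, with no test. Between the tissues 0 of the 14 rose and 1, Klf2, fell in heart on 4 arrays (-1.54, limma adjusted p = 0.00559), a call lost without tail 2 or tail 3 (0.0621 and 0.0500). Nr4a2 read -0.81, -0.50 and -1.31 on heart and -1.05, -0.44 and -0.17 on tail and did not pass (-0.75, adjusted p = 0.121; by label -0.32). Nr4a3 was not well above background outside heart 2.

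**Figure D4:**
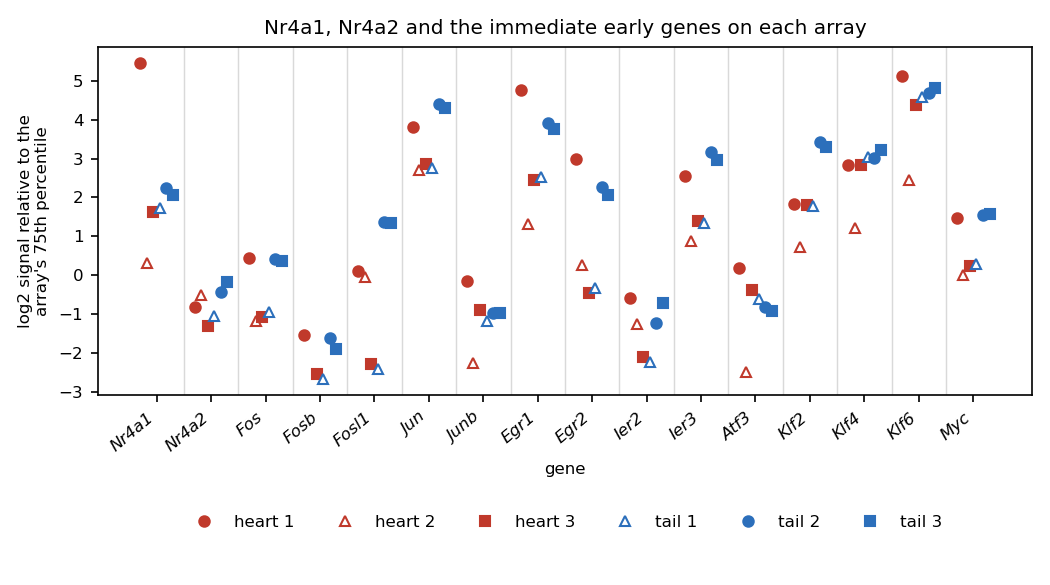
Normalised log2 signal of Nr4a1, Nr4a2 and the 14 tested immediate early genes on each array, heart in red and tail in blue, with open triangles for heart 2 and tail 1. The red circle of heart 1 lies above the red square of heart 3 in every column, farthest for Nr4a1 (5.46 against 1.62).

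Of the estrogen-related receptors, which drive genes of mitochondrial metabolism, Esrra was well above background on every array. It read 3.91, 1.97 and 3.85 on heart and 3.74, 3.98 and 3.88 on tail and did not pass (4 arrays: -0.05, SE 0.14, limma adjusted p = 0.844; by label -0.62). Esrrb was well above background on heart 1, tail 1 and tail 2 and had no usable spot on heart 2, with values between -4.09 and -3.38. Esrrg was well above background on heart 1 (-4.07), heart 2 (-0.54) and tail 1 (-3.74), and read -4.39 on heart 3, -6.63 on tail 2 and -4.09 on tail 3 with its brighter probe. Neither Esrrb nor Esrrg was tested.

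Among the other orphan receptors, Hnf4a, a master regulator of liver and gut epithelium, was lower in heart on 4 arrays. It read -7.31, 1.70 and -6.21 on heart 1, 2 and 3 and -6.19, -1.40 and -1.66 on tail 1, 2 and 3. The signal was well above background on tail 2, tail 3 and heart 2, which had the highest value, and not on heart 1, heart 3 or tail 1. It was not tested by label, since tail 1 in the tail group and heart 1 and 3 in the heart group were not well above background. On 4 arrays it was at least 7.79-fold lower in heart (limma log2 difference -5.23, SE 0.40, adjusted p = 0.00312), and the difference was -1.92 with normexp. It was -5.91 between heart 1 and tail 2 and -4.55 between heart 3 and tail 3. With heart 2 and tail 1 included, the difference over the first slide row was 0.99. Leaving out any 1 of the 4 arrays kept the call. The array carried a single Hnf4a probe by RefSeq accession.

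Nr2c1 and Nr2c2, the testicular receptors, were well above background on all arrays. Nr2c1 read 0.78, -0.98 and 1.20 on heart and 1.35, 1.24 and 1.43 on tail (4-array difference -0.34, limma adjusted p = 0.34; by label -1.01). Nr2c2 read 1.1, -0.15 and 1.18 on heart and 1.32, 1.02 and 1.06 on tail (0.10, adjusted p = 0.69; by label -0.42). Nr5a1, or SF-1, a regulator of steroid-producing organs, read -1.75, 0.53 and -1.78 on heart and -1.37, -1.51 and -1.54 on tail (-0.24, adjusted p = 0.33; by label 0.47). None of these passed. The heart and tail values did not overlap on 4 arrays for any of them, as for 62.5% of all features. By label they did not overlap for Nr2c1, as for 10.4% of all features. Another Nr2c2 probe overlapped on 4 arrays (difference 0.02), and another Nr2c1 probe overlapped by label.

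A further 8 members were not well above background on any array other than heart 2. They are Nr0b1 and Nr0b2, which lack a DNA-binding domain, Nr2e1 and Nr2e3 of the nervous system and retina, Nr5a2, Nr6a1, Hnf4g and Nr4a3. Their 9 probes read between -7.23 and -4.59 on the 5 other arrays and between -4.97 and 1.07 on heart 2. In all, 28 of the 44 receptors had a probe well above background on each of the 5 arrays other than heart 2, and 8 lay in between.

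Genes that make, break down or carry receptor ligands were fixed as a list of their own. Of its 15 tested genes, 6 rose and 2 fell in heart on 4 arrays, beside 14.4% of all features, and the median log2 difference was 0.61, beside -0.07 over all features. Hsd11b1, which turns inactive cortisone-type steroids into active glucocorticoid, was 83.1-fold higher in heart (limma log2 difference 6.38, SE 0.25, adjusted p = 0.000934). It read 6.66, 0.15 and 7.05 on heart 1, 2 and 3 and 7.09, 0.73 and 0.23 on tail 1, 2 and 3, so tail 1 again lay with heart and heart 2 with tail. Ch25h and Cyp27a1, which make oxysterols, were 13.6-fold and at least 2.08-fold higher (adjusted p = 0.0139 and 0.00634). With normexp the difference of Cyp27a1 shrank from 2.63 to 0.52 and did not pass (adjusted p = 0.174). Cyp27a1 entered the test only through heart, and it did not pass without the filter (limma adjusted p = 0.0621). Dio3, which inactivates thyroid hormone, was 7.03-fold lower in heart (log2 difference -2.81, SE 0.16, adjusted p = 0.00153). The other 4 that passed each lost the call without 1 tail array: Cyp7b1 (limma adjusted p = 0.0531) and Akr1c14 (0.058) without tail 2, Slc16a10 without tail 3 (0.0659), and Hsd17b11, the one lower in heart, without tail 2 (0.236) or tail 3 (0.193). Hsd17b11 also missed the threshold with quantile normalization (0.0515). By label 0 of the 15 passed.

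**Figure D5:**
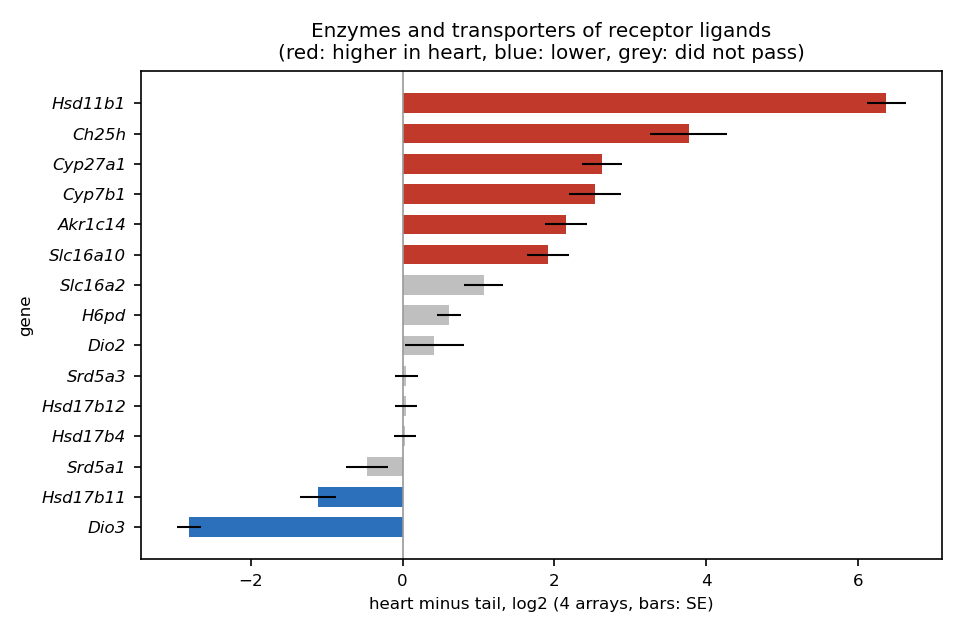
Heart minus tail on the log2 scale (4 arrays, SE bars) for the 15 tested enzymes and transporters of receptor ligands. Hsd11b1 extends to 6.38 towards heart and Dio3 to -2.81 towards tail.

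Cofactors carry out the receptors' effect on transcription. Of 15 tested coactivators 2 passed on 4 arrays as higher in heart (Kat2b, log2 difference 0.95, limma adjusted p = 0.0271, and Ncoa7, 0.69, adjusted p = 0.0491), and of 13 corepressors 1 did (Hr, 0.81, adjusted p = 0.0419). No coactivator or corepressor was lower. These counts lie near the 14.4% of all features that passed on 4 arrays, and so are no result about the cofactors. The median differences were -0.10 and 0.06. Each of these 3 calls was lost without tail 2 or tail 3 (limma adjusted p = 0.217 and 0.219 for Kat2b, 0.421 and 0.342 for Ncoa7, 0.361 and 0.237 for Hr). Ncoa7 and Hr were also lost without heart 1 (0.0656 and 0.0702) or heart 3 (0.0622 and 0.0607), after median scaling (0.127 and 0.0863) or when slide row was blocked (0.126 and 0.0861). Median scaling also ended the call of Kat2b (0.0556). Ncoa7 did not pass with quantile normalization (0.0659), with trend and robust estimation (0.0855) or with normexp, where its difference was 0.38 (0.15). Of 10 receptor chaperones, only the glucocorticoid-inducible Fkbp5 passed (1.23, adjusted p = 0.018; 0.116 without tail 2 and 0.139 without tail 3).

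Known targets of the receptors were counted in the same way, and their counts are to be read against the 14.4% of all features that passed on 4 arrays (7.8% higher in heart, 6.65% lower). Of 12 glucocorticoid receptor targets, Fkbp5 and Cebpd (0.83, limma adjusted p = 0.0306) rose and none fell, with a list median of 0.80. Cebpd lost its call without heart 3 (0.0504), tail 2 (0.238) or tail 3 (0.308), after median scaling (0.0767) or when slide row was blocked (0.0704). Of 11 LXR targets, Apoe, a lipid carrier of macrophages, rose (2.55, adjusted p = 0.0228) and Mylip fell (-1.50, adjusted p = 0.0164), and the list median was -0.26. Apoe did not pass without heart 1 (0.0634) or heart 3 (0.0923), and Mylip not without tail 2 (0.068) or tail 3 (0.104).

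Of 13 PPAR targets 2 rose in heart and none fell on 4 arrays, with a list median of 0.29, again beside 14.4% of all features. Angptl4, an inhibitor of lipoprotein lipase, differed by 2.01 (limma adjusted p = 0.00312), and Cd36, a fatty acid carrier, by 1.66 (adjusted p = 0.0187; 0.0631 without heart 1, 0.0577 without heart 3 and 0.0878 without tail 3). Of 14 clock genes 3 rose and none fell, with a median of 0.31. They were Hlf (3.33, adjusted p = 0.00309), Bhlhe40 (1.33, adjusted p = 0.0101; 0.101 without tail 2 and 0.0819 without tail 3) and Bhlhe41. The last was at least 1.80-fold higher (adjusted p = 0.039) and lost its call without heart 1 (0.0968), heart 3 (0.124) or tail 3 (0.0885) and with normexp (0.295), quantile normalization (0.0837) or trend and robust estimation (0.0556). Hlf and Bhlhe41 entered the test only through heart, where they are high, so their place in the count is no support. By label none of the genes of these lists passed limma's test.

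Some markers of cell types also differed on the same 4 arrays, and their counts are to be read against the 14.4% of all features that passed. Of the 12 fibroblast markers 4 rose and 1 fell in heart on 4 arrays, with a median log2 difference of 0.39. Of 12 leukocyte and macrophage markers 8 rose in heart on 4 arrays and none fell, with a mean normalised signal of 1.90 and 2.69 on heart 1 and 3 and 0.21 and -0.45 on tail 2 and 3. All 12 were well above background on heart 1, heart 3, tail 1 and tail 2 and 10 on tail 3. Their log2 summed level was 6.33 and 7.20 on heart 1 and 3 and 6.32 and 5.90 on tail 2 and 3. Of 12 endothelial markers 9 rose and none fell, and 12 were well above background on heart 1, heart 3 and tail 1, against 8 on tail 2 and 3. Their mean normalised signal was -0.51 and -0.19 on heart 1 and 3 and -2.38 and -2.46 on tail 2 and 3. Leukocyte and endothelial genes not well above background on tail 2 or tail 3 entered the test only through heart. The log2 summed level of the endothelial list was 4.87 and 5.20 on heart 1 and 3 and 5.21 and 4.85 on tail 2 and 3. Of 8 smooth muscle and pericyte markers 4 fell in heart and none rose, with a log2 summed level of 9.38 and 9.24 on heart 1 and 3 and 10.55 and 10.27 on tail 2 and 3.

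On tail 1 the mean signal was 2.39 for the leukocyte and -0.39 for the endothelial list, nearer to heart 1 and 3 than to tail 2 and 3. With 6 arrays by label none of the markers passed. Of the adipocyte markers 6 of 9 were tested, and 3 fell in heart and none rose. Of the cardiomyocyte and skeletal muscle markers 4 each were tested, and 2 in each list fell. On heart 3 only 3 adipocyte, 2 cardiomyocyte and 3 skeletal muscle markers were well above background. Tested genes of these lists that were not so on heart 1 or heart 3 entered the test only through tail. Of 3 tested Schwann cell markers 1 rose and 1 fell, and of 2 keratinocyte markers none passed. The part of these cells in the differences of Nr1h3, Nr1h4, Nr2f1, Rara, Vdr, Pgr, Rorb and Hnf4a was not tested. In RNA from whole cultures, fewer cells of a type and less RNA per cell cannot be told apart.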

How the data were processed

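Spot intensities in the deposited files come from Agilent Feature Extraction 11.0.1.1, per the file headers and the submitters' processing notes, with background subtracted and trends across the array corrected, and without scaling between arrays. Other deposited columns are flags for a signal well above background, for saturated spots and for outlier spots. The authors' deposited table lists 433 probes with their log2 and linear fold ratios; the sources used here do not say how it was made.

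From each log2 processed signal the 75th percentile of its array was subtracted, taken over the 55681 probes that are not controls. Outlier spots were left out, spots of a probe were averaged, and the brightest tested probe stood for a gene. No member probe was saturated. RefSeq accessions, looked up in GRCm38.p6, named 27235 probes. Upstream sequences are from RefSeq. The array header names mm9, so no other coordinates are given. The test was limma's (version 3.58.1 in R 4.3.3, lmFit with eBayes), two-sided, with p-values adjusted by Benjamini-Hochberg over all features tested, a threshold of 0.05, and scripts tested on simulated data. Python 3.11.15, pandas 2.3.3 and matplotlib 3.10.9 did the rest. A fold is given as "at least" where no array of the dimmer group had the probe well above background: the brighter mean against, on each dimmer array, the higher of its own signal and the lowest signal well above background. The number of arrays limits the precision, and p-values measure the spread between cultures.

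The members, lists and the 4-array comparison were chosen with earlier results of these data known. Values on every array are given for members that passed, for tested members of their subfamilies, for broadly expressed receptors and for those spanning over 2 log2 units; members not well above background outside heart 2, and Esrrb, are given by range, the former a departure from that rule. From each pathway list the 4 called genes with the largest differences were to be named; Cyp7b1, Akr1c14, Slc16a10 and Hsd17b11, the others called in the ligand list, were added after their values were seen; Fos, Egr1 and Egr2 are named as examples and Col1a1, Col1a2 and Pdgfra as markers. Normexp (offset 50) used median spot and background intensities.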

Additional observations from a re-analysis of the deposited data

How the results depend on the processing

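With 6 arrays by label, 0 receptors passed under quantile normalization, normexp, median scaling, no filter, signal required on all arrays, the mean of a gene's probes, trend and robust estimation and the slide row as a block, and 0 with each array left out. Median scaling moved the median over all features from -0.40 to -1.33 in that comparison. With array weights 7 passed, and Nr1h3 turned from -0.07 to 1.54. With the replicate number as a block 0 receptors and 44 of all features passed. Deviations of same-numbered heart and tail arrays correlated at 0.195, 0.26 and -0.329, beside -0.293 to 0.339 for differently numbered arrays. Heart 2 and tail 1 enter those deviations, so these values cannot show whether the number pairs the cultures. No paired analysis was possible for 4 arrays because they share 1 number. On 4 arrays the count of 8 fell to 4 when each probe had to be well above background on every array, which leaves out Nr1h4, Pgr, Rorb and Hnf4a by construction. Testing without the filter, with the brightest probe of each feature, gave 2, Nr1h4 and Hnf4a, over more features. Of the called genes in the pathway lists, Hsd11b1, Dio3, Angptl4 and Hlf passed unfiltered and the others did not. Leaving out 1 of the 4 arrays gave 5 to 8, where the lone array of a group is assumed to vary like the others. The count was 7 or 8 in the other settings.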
